A study of Mus musculus with 8 samples.

Results

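A set of 10 transcription factors that direct the formation of blood was followed across embryonic stem (ES) cells and embryoid bodies, namely Tal1, Lyl1, Lmo2, Runx1, Fli1, Erg, Spi1, Myb, Meis1 and Etv6. They were chosen by name with earlier results of these data known, as were the gene lists below. Medians and counts set beside those of all genes are therefore descriptions. The probe sets used were those that the array's annotation gives to 1 of these genes and to no other. All 10 were found among the 18193 genes with such a probe set, with 22 of the 34945 probe sets. All 10 passed the filter on dim signal (above the array's median on at least 2 of 8 arrays), as did 12982 genes in all, but Lyl1 and Fli1 passed it on the 4 embryoid body arrays alone, Erg on the 2 replicate 1 embryoid body arrays alone, and Meis1 on the embryoid body arrays and 1 ES cell array.

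The study used CCE, a mouse ES cell line of strain 129/Sv. A lentivirus was used that held either a mouse Bmi1 cDNA or no insert, and infected cells were sorted for eGFP, per the labels' protocols. Bmi1 is a subunit of Polycomb repressive complex 1, which silences developmental genes. The 4 groups of 2 Affymetrix arrays were embryoid bodies labelled Bmi1, embryoid bodies with the empty vector, ES cells that carry the Bmi1 label, and control ES cells, for which 1 array of untreated and 1 of empty vector cells stood together. ES cells were grown with leukemia inhibitory factor, and embryoid bodies, aggregates in which ES cells differentiate into many cell types at once, were collected on day 10. The labels name no separate clones, cultures or infections for the replicates, so the p-values here reflect array-to-array spread that could be technical. All cells are of 1 line, and an embryoid body is a mixture of cell types, so fewer cells of a type and less RNA per cell cannot be told apart in any value given here.

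Blood and endothelium arise together from Kdr-positive mesoderm, and these genes work in linked groups on the way. Tal1 (also called SCL) and its close relative Lyl1 are basic helix-loop-helix proteins that bind DNA with an E protein, and Lmo2 is the adaptor that joins them to GATA factors. Fli1, Erg, Spi1 (PU.1) and Etv6 carry the ETS DNA-binding domain. Runx1 drives the change from endothelium to blood, Myb is needed for definitive blood progenitors, and Meis1 is a homeobox partner of Pbx and Hox proteins.

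The upstream sequences of Tal1 and Lyl1 are shown because these 2 genes were lower together in embryoid bodies labelled Bmi1. Both come from RefSeq (assembly GRCm38.p6), are written 5′ to 3′ on the plus strand, and end just before the annotated start of the gene. That of Tal1 spans chr4:115056176-115056425 and that of Lyl1 chr8:84701207-84701422. Capitals mark a GATA motif.
Tal1: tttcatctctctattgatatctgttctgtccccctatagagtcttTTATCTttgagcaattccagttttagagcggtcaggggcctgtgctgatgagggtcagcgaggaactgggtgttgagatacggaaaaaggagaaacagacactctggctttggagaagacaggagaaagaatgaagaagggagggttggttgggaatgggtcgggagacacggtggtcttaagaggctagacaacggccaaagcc
Lyl1: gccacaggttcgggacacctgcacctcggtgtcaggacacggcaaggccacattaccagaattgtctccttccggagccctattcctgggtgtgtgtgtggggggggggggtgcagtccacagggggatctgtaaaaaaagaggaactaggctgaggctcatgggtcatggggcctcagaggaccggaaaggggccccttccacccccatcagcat
Each of 3 motifs was looked for on both strands in up to 250 bases before a start. The GATA motif, searched as AGATAA and seen in the Tal1 sequence as its reverse complement, stood in 2 of 11 windows of the members and in 9.99% of all 32851 windows. The ETS motif AGGAAG stood in 2 of 11, against 29.5% of all windows, and the RUNX motif TGTGGT in 1 of 11, against 14%. The 11 windows belonged to Tal1, Lyl1, Runx1, Erg, Myb, Meis1 and Etv6, and the table used here had none for Lmo2, Fli1 and Spi1. Tal1 has another window in the table, which starts further downstream and held none of the 3 motifs; the one shown is the more upstream. The Lyl1 sequence held none of the 3 motifs, which says only that these letters are not in this window.

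By their value distributions the 8 columns fell into 3 sets: the replicate 1 embryoid bodies, the replicate 2 embryoid bodies and the ES cells. Sorted values differed by 0.00994 to 0.0325 log2 units on average between arrays of 1 set and by 0.189 to 0.442 between sets. Both sets of embryoid bodies paired an array labelled Bmi1 with a vector array, so these results are given within each replicate number too, and with the number as a term in the model (the blocked fit). Bmi1 itself read 7.48 and 8.51 in embryoid bodies labelled Bmi1 against 9.35 and 9.67 with the vector, and 5.68 and 6.28 in ES cells labelled Bmi1 against 7.41 without virus and 7.74 with the empty vector. By this probe set, the brighter of 2 for the gene, Bmi1 was thus lower on the arrays that carry its label. Whether the probe set reads the cDNA in the virus was not tested. Samples are therefore called labelled Bmi1, and every direction below is that of the arrays so labelled.

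In embryoid bodies, 9 of the 10 factors read lower with the Bmi1 label than with the vector. Tal1, Lmo2, Lyl1 and Fli1 showed the largest differences of means, between 0.57 and 0.96 log2 units, and Runx1 alone read higher. The median difference of the 10 was -0.37 log2 units, beside -0.04 over all genes tested. It was -0.42 without the replicate 1 array labelled Bmi1 and -0.60 without the replicate 2 array so labelled. Without vector replicate 1 it was -0.60 and without vector replicate 2 -0.56. Leaving out 1 of these arrays also brings in how the embryoid body replicate numbers differ. Within the replicate 1 arrays the medians were -0.67 and -0.05, and within the replicate 2 arrays -0.31 and -0.03. In 7 factors (Tal1, Lyl1, Lmo2, Fli1, Erg, Meis1 and Etv6) the difference was below 0 within both replicate numbers, as it was for 36.3% of all genes. Tal1, Lyl1, Lmo2 and Fli1 were the 4 whose arrays labelled Bmi1 both lay below both vector arrays, as 14.4% of all genes did.

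By limma with group means alone, 0 of the 10 passed Benjamini-Hochberg adjustment at 0.05 over the 12982 genes, in a comparison in which 0.0077% of genes were called lower. The unadjusted p was under 0.05 for 4 of the 10, and for 7.06% of all genes. In the blocked fit limma called 1 factor, Lyl1, lower, where 0.739% of all genes were called lower.

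**Figure D1:**
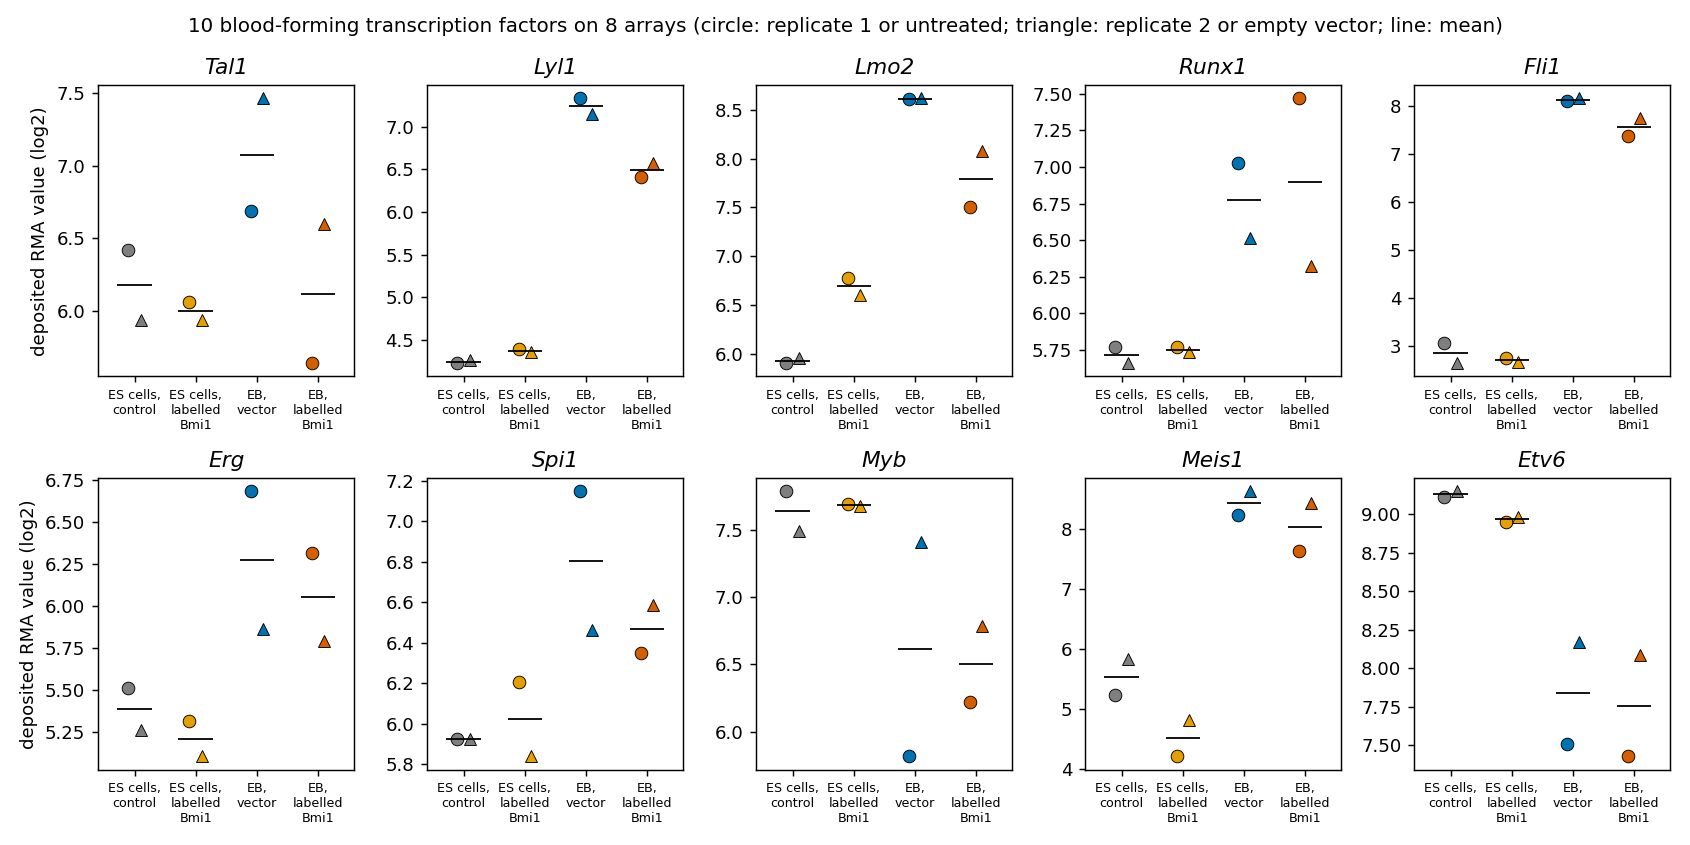
Deposited RMA values (log2, y axis, a separate scale for each gene) of the 10 factors on the 8 arrays, by group on the x axis; circles are replicate 1 or untreated cells, triangles replicate 2 or empty vector cells, and lines the group means. Lyl1, Fli1 and Meis1 stood far higher in embryoid bodies than in ES cells, and Etv6 stood lower there. Lmo2 stood higher by 2.68 in vector embryoid bodies than in control ES cells, and by 1.10 between the stages labelled Bmi1. The embryoid body arrays labelled Bmi1 lay below both vector arrays for Tal1, Lyl1, Lmo2 and Fli1.

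Tal1, Lyl1 and Lmo2, which work in shared complexes, showed the largest mean differences of the 10. Lyl1 (probe set 1419120_at) read 6.41 and 6.57 log2 units in the replicate 1 and 2 embryoid bodies labelled Bmi1 and 7.33 and 7.15 in the vector embryoid bodies. The groups did not overlap, and the gap was wider than the spread within either group. The difference was -0.75 ± 0.16 (SE, n = 2 and 2 arrays), a 1.69-fold lower signal, with differences of -0.93 and -0.58 within replicates 1 and 2. Limma gave adjusted p = 0.227 without the block and 0.0394 with it. The shared spread in both fits includes the ES cell arrays, where Lyl1 lay below the array's median. Its SD there was 0.026 in each group, beside 0.12 in embryoid bodies labelled Bmi1 and 0.13 with the vector. The blocked call was lost with every probe set tested on its own (adjusted p = 0.0568), with the embryoid body arrays alone (0.319) and with the 6 numbered arrays alone (0.415).

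Lmo2 (1454086_a_at) read 7.50 and 8.08 in the embryoid bodies labelled Bmi1 and 8.61 and 8.62 in the vector embryoid bodies. Its vector arrays were almost equal, both arrays labelled Bmi1 lay below them, and the replicate 1 array was the lowest. The difference was -0.82 ± 0.22 (SE, n = 2 and 2 arrays), with -1.10 within replicate 1 and -0.54 within replicate 2, and limma gave adjusted p = 0.338 without the block and 0.0596 with it. Tal1 (1449389_at) read 5.64 and 6.60 with the Bmi1 label and 6.69 and 7.47 with the vector. The groups lay apart only narrowly, because both replicate 2 arrays read higher than their replicate 1 partners, but the gap was similar within each number, at -1.05 and -0.87. The difference was -0.96 ± 0.38 (SE, n = 2 and 2 arrays), with adjusted p = 0.658 by limma without the block and 0.0508 with it. The SD of Tal1 was 0.68 and 0.55 in embryoid bodies labelled Bmi1 and with the vector. In ES cells labelled Bmi1 and in control ES cells it was smaller, 0.09 and 0.34, and these arrays share in the SE. With the block and quantile normalization together, and with the block and an intensity trend with robust prior, limma called Tal1 (adjusted p = 0.0391 and 0.0433) and Lmo2 (0.0479 and 0.0493) as well as Lyl1. Both combinations were added after seeing the data. Other blocked fits called neither Tal1 nor Lmo2. Limma adjusted p was 0.0695 and 0.0806 with every probe set tested on its own. It was 0.313 and 0.344 with the embryoid body arrays alone, and 0.512 and 0.4835 with the 6 numbered arrays alone.

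Fli1 was the 1 ETS factor for which the probe set that stands for the gene did not overlap between the groups. The second Erg probe set, given below, did not overlap either. Fli1 (1433512_at), which is active in endothelium, platelets and their progenitors, read 7.38 and 7.75 in embryoid bodies labelled Bmi1 and 8.11 and 8.17 in vector embryoid bodies. The difference was -0.57 ± 0.21 (SE, n = 2 and 2 arrays), with -0.73 and -0.42 within the replicate numbers. Limma gave adjusted p = 0.593, and 0.129 with the block. Erg (1425370_a_at), which acts beside Fli1 in endothelium and blood stem cells, read 6.32 and 5.79 against 6.68 and 5.86. Its replicate numbers lay further apart than its groups, which overlapped, and the difference was -0.22 ± 0.31 (SE, n = 2 and 2 arrays).

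Spi1 (1418747_at), the factor that sets the macrophage and B cell fates, read 6.35 and 6.59 with the Bmi1 label and 7.15 and 6.46 with the vector. The vector replicate 1 array was the highest and the other 3 lay close together, so that the difference had opposite signs in the 2 numbers, -0.80 in replicate 1 and 0.13 in replicate 2. Macrophage and leukocyte markers did so in their mean level: over the 13 of 14 listed genes that were tested, the mean level was 7.60 and 7.31 in embryoid bodies labelled Bmi1 and 8.72 and 6.65 in vector embryoid bodies, and 11 of them lay above the array's median on all 4 arrays. Ptprc, which encodes the pan-leukocyte antigen CD45, read 7.84 and 7.85 against 8.91 and 6.68. By limma 0 of the 13 were called with or without the block, and an unadjusted p under 0.05 was given to 0 without the block and 1 with it. The 3 with the smallest p, Cd68, Fcgr3 and C1qb, were at -0.47, -0.60 and -0.81. The part of these cells in the Spi1 values was not tested. Etv6 (1434880_at), an ETS repressor needed for blood stem cells in the bone marrow, read 7.43 and 8.08 against 7.51 and 8.17, and its difference was -0.08 within replicate 1 and -0.09 within replicate 2.

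Readings of Runx1, Myb and Meis1 overlapped between the labels. Runx1 (1452531_at) read 7.47 and 6.32 in embryoid bodies labelled Bmi1 and 7.03 and 6.51 in vector embryoid bodies, with differences of 0.44 in replicate 1 and -0.19 in replicate 2. Its highest and its lowest reading were both from arrays labelled Bmi1. Myb (1421317_x_at) read 6.22 and 6.79 against 5.82 and 7.41, and its differences were 0.40 and -0.63. Both of its extremes were vector arrays, replicate 1 at the low end and replicate 2 at the high end.

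The pluripotency markers, whose 8 listed genes were all tested and all lay above the array's median on the 4 arrays, had the same order of arrays as Myb in their mean level, though 2 of the 8 were higher and 2 lower within both replicate numbers. Their mean level was 8.61 and 9.74 in embryoid bodies labelled Bmi1 and 8.29 and 10.3 in vector embryoid bodies, and 0 of the 8 were called by limma in either fit, with an unadjusted p under 0.05 for 0 without and 1 with the block. Pou5f1, Esrrb and Klf4, core factors of the undifferentiated state, were at -0.40, -0.48 and 0.39. The part of remaining undifferentiated cells in the Myb values was not tested. Meis1 (1450992_a_at) read 7.63 and 8.42 against 8.23 and 8.62. The groups overlapped, with the replicate 1 array labelled Bmi1 the lowest, and the difference was -0.40 ± 0.36 (SE, n = 2 and 2 arrays), with -0.60 and -0.20 within the numbers. For Erg, Spi1, Etv6, Runx1, Myb and Meis1 limma gave adjusted p between 0.90 and 1.00 without the block and between 0.436 and 0.831 with it.

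**Figure D2:**
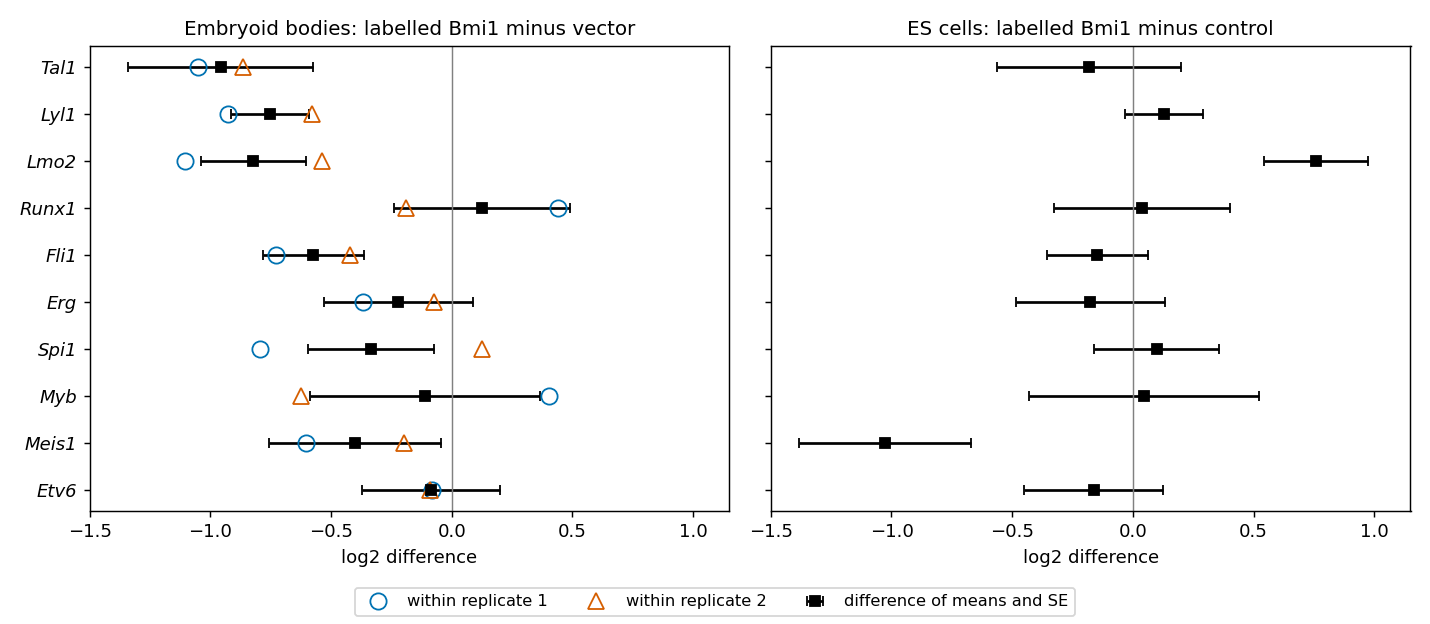
Log2 differences (x axis) of the 10 factors between arrays labelled Bmi1 and their controls, in embryoid bodies (left) and ES cells (right); squares with bars are the difference of means and its SE from the limma fit without a block, and open circles and triangles the differences within embryoid body replicates 1 and 2. Tal1, Lyl1, Lmo2 and Fli1 lie below 0 within both replicate numbers, whereas the signs for Spi1, Myb and Runx1 differ between the numbers; in ES cells Lmo2 lies above 0 and Meis1 below.

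Several factors have more than 1 probe set, and these did not always give the same value. Of the 22 probe sets, 18 were lower and 4 higher in embryoid bodies labelled Bmi1, and limma called 0 of the 20 that were bright enough to test, with or without the block, where 1.12% and 0.0479% of all 22951 probe sets tested were called. An unadjusted p under 0.05 was given to 6 of the 20 in either fit, and to 5.99% of all probe sets without the block and 19.3% with it. The second Fli1 probe set (1422024_at) was at -0.53 and, like the first, did not overlap between the groups. The second Erg probe set (1440244_at) read 6.08 and 6.09 against 6.80 and 6.51, without overlap, for a difference of -0.57. The probe set that stands for Erg was at -0.22 with overlap. It was the brighter over the 8 arrays but not in embryoid bodies. Its means there were 6.05 with the Bmi1 label and 6.27 with the vector, beside 6.09 and 6.65 for the second. The 3 Myb probe sets were at -0.11, -0.29 and -0.26 and all changed sign between the replicate numbers. The 6 Runx1 probe sets ranged from -0.53 to 0.12, and the lowest of them, 1422865_at, was too dim to test.

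**Figure D3:**
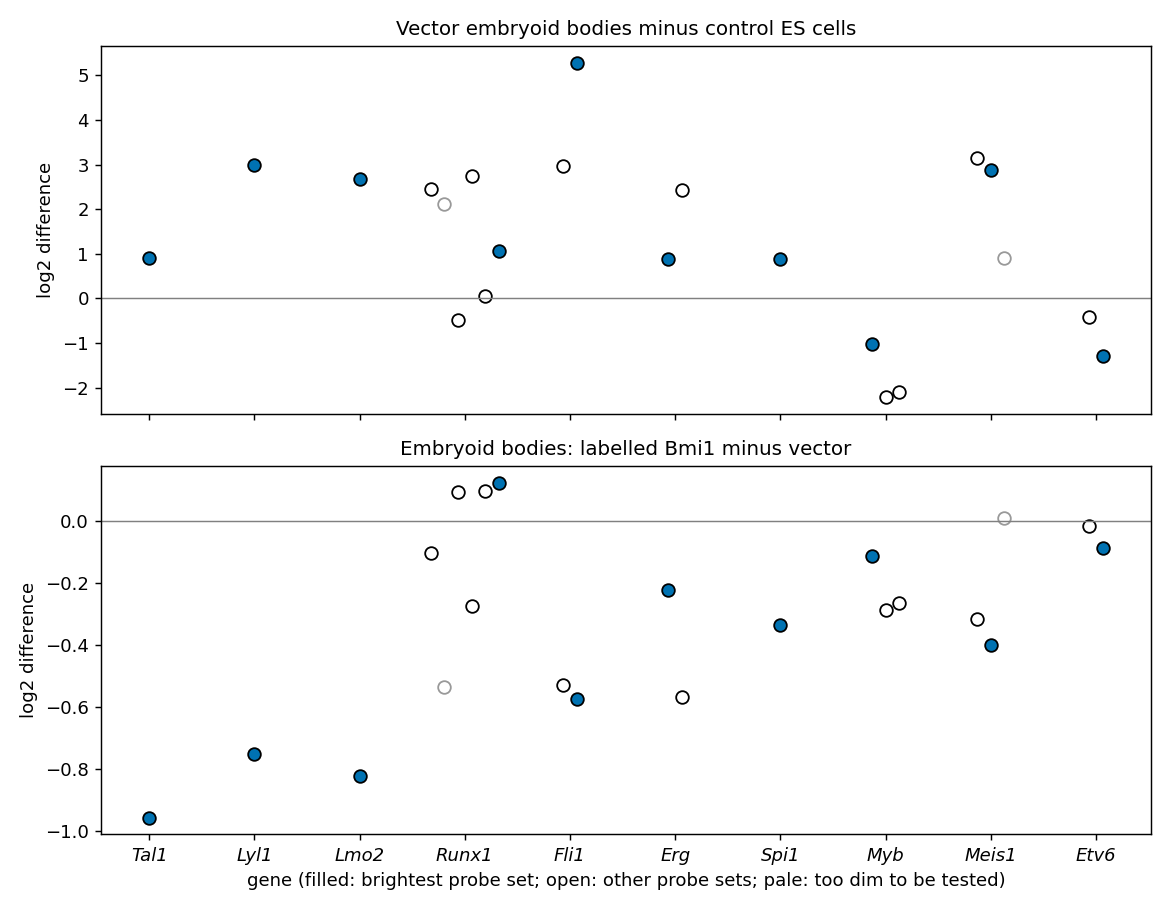
Log2 differences (y axes) of the 22 probe sets of the 10 factors (x axis) between vector embryoid bodies and control ES cells (top) and between embryoid bodies labelled Bmi1 and vector embryoid bodies (bottom); filled points are the probe set that stands for the gene, open points the others, and pale points 2 that were too dim to test. The Runx1 probe sets spread from -0.49 to 2.74 in the upper panel, whereas those of Myb all lie below 0 and those of Fli1, Erg and Meis1 all above 0.

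In ES cells, Lmo2 and Meis1 showed the largest differences between arrays labelled Bmi1 and controls, in opposite directions, and neither passed the test. Lmo2 read 6.78 and 6.60 in ES cells labelled Bmi1, 5.91 in untreated cells and 5.96 in empty vector cells. The 2 controls were close and both lay below the arrays labelled Bmi1, the reverse of the order in embryoid bodies, with a difference of 0.76 ± 0.22 (SE, n = 2 and 2 arrays; limma adjusted p = 0.426, or 0.0826 with the block). Meis1 read 4.21 and 4.81 with the Bmi1 label, 5.24 in untreated cells and 5.84 with the empty vector. The 4 arrays were spread widely without overlap, and the difference was -1.03 ± 0.36 (SE, n = 2 and 2 arrays; limma adjusted p = 0.60, or 0.139 with the block). This rested on 1 probe set: the other 2 Meis1 probe sets were at 0.00 and -0.04, and 3 of the 4 readings of the first lay below their array's median, the empty vector array being above it. The other 2 lay below the array's median on all 4 ES cell arrays, and 1459423_at was too dim to test. A lower signal could hardly be seen in them.

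The remaining 8 factors were between -0.18 and 0.13 in ES cells. Lyl1, Fli1 and Erg lay below the array's median on all 4 arrays, so their differences there are between dim signals. Limma called 0 of 10 without the block and 0 of 10 with it, where 0.0462% and 1.66% of all genes were called. The unadjusted p was under 0.05 for 2 factors and for 6.29% of all genes. Groups did not overlap for 4 factors, Lmo2 and Lyl1 (higher) and Meis1 and Etv6 (lower), beside 45.6% of all genes, so this count is near the background.

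The difference between stages was tested directly as an interaction. For Lmo2 the contrast between label and control was lower in embryoid bodies than in ES cells by 1.58 ± 0.31 log2 units (SE, 8 arrays), with limma adjusted p = 0.243 without the block and 0.0434 with it. The blocked call was lost with quantile normalization (adjusted p = 0.0558) and with every probe set tested on its own (0.0599), and the value ran from -1.87 to -1.29 when 1 array was left out. For Lyl1 the same term was -0.88 ± 0.23, with adjusted p = 0.408 and 0.0791. The other 8 lay between -0.78 and 0.63. Without the block limma called 0 of 10 factors and 0% of all genes, with an unadjusted p under 0.05 for 2 factors and for 6.83% of all genes. In the blocked fit it called 1 factor, Lmo2, and 0.824% of all genes. No other factor passed in either fit.

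Several of the factors differed between the stages. In vector embryoid bodies against control ES cells limma called 7 factors higher (Fli1, Lyl1, Meis1, Lmo2, Runx1, Erg and Spi1) and 1 lower (Etv6), where 22.7% of all genes were called higher and 35.8% lower. With the block these were 8 higher, now with Tal1, and 2 lower, now with Myb, beside 29.5% and 45.3% of all genes. The members' median was 0.98, beside -0.24 over all genes. Each array set held 1 stage, so stage and set cannot be told apart. The median over all genes moved to -0.04 with quantile normalization and to -0.56 with median centring, and differences of about that size depend on the scaling.

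Fli1, Lyl1, Meis1 and Lmo2 had differences well beyond that shift. Fli1 read 3.07 in untreated ES cells, 2.64 with the empty vector, and 8.11 and 8.17 in vector embryoid bodies, a rise of 5.29 ± 0.21 (SE, n = 2 and 2 arrays; limma adjusted p = 2.1e-05). Lyl1 read 4.23 and 4.27 in these ES cells and rose by 2.99 ± 0.16 (adjusted p = 3.4e-05). Meis1 rose by 2.89 ± 0.36 (adjusted p = 6.3e-04) and Lmo2 by 2.68 ± 0.22 (adjusted p = 1.4e-04). Fli1, Lyl1, Meis1 and Erg entered the test only through the embryoid body arrays, so the counts and the median above are no support in themselves. With no filter, when no gene enters by its level, limma gave adjusted p = 1.3e-05 for Fli1, 2.9e-05 for Lyl1, 5.7e-04 for Meis1, 1.3e-04 for Lmo2 and 0.0446 for Erg. The highest adjusted p of Fli1, Lyl1, Meis1 and Lmo2 without any 1 array was 0.00773.

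The other calls were less firm. Runx1 was at 1.06 ± 0.37, Erg at 0.89 ± 0.31 and Spi1 at 0.88 ± 0.26 (SE, n = 2 and 2 arrays each; limma adjusted p = 0.0401, 0.0408 and 0.0226), and all 3 calls were lost with quantile normalization, with median centring, without vector embryoid body replicate 1, and with either control ES cell array alone, when 5 factors in all were called. Those of Runx1 and Erg were also lost without either ES cell array labelled Bmi1. Probe sets dimmer on average gave larger differences for 2 of these genes, 2.43 for Erg and 2.45 and 2.74 for 2 of the Runx1 probe sets. The Runx1 probe sets did not agree, however. Of the others, 1427650_a_at was at -0.49, 1452530_a_at at 0.07, and 1422865_at, too dim to test, at 2.11. Tal1 was at 0.90 ± 0.38 (adjusted p = 0.0794), and was called without vector replicate 1 (1.28, adjusted p = 0.0337) and without either embryoid body array labelled Bmi1 (0.0438). It read 6.42 in untreated ES cells and 5.94 with the empty vector, and the ES cell arrays overlapped with the embryoid bodies labelled Bmi1. Etv6 read 9.11 and 9.15 in control ES cells and fell by 1.29 ± 0.29 (adjusted p = 0.0072). Myb read 7.78 and 7.49 there and was at -1.02 ± 0.48 (adjusted p = 0.102), while its other 2 probe sets fell (-2.22 and -2.09). It was at -0.23 without vector replicate 1 and fell by 1.82 (adjusted p = 0.0013) without vector replicate 2. Over the 20 probe sets tested, limma called 12 higher, 3 lower and 5 neither way, where 22.1% of all 22951 probe sets were called higher and 33% lower.

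In the samples labelled Bmi1, Fli1 again showed the largest rise of the 10 from ES cells to embryoid bodies. Between ES cells and embryoid bodies labelled Bmi1, Fli1 rose by 4.86 ± 0.21, Meis1 by 3.52 ± 0.36 and Lyl1 by 2.11 ± 0.16 (SE, n = 2 and 2 arrays each; limma adjusted p = 3.1e-05, 3.5e-04 and 1.3e-04). Lmo2 rose by 1.10 ± 0.22 (adjusted p = 0.0044), beside 2.68 in vector samples, and the gap between these values is the interaction given above. Tal1 was at 0.12 ± 0.38 (adjusted p = 0.801), and turned to -0.24 with quantile normalization and -0.22 with median centring. Limma called 6 factors higher (Fli1, Meis1, Lyl1, Lmo2, Runx1 and Erg) and 1 lower (Etv6), beside 21.2% and 38% of all genes. This count of 7 was 4 without embryoid body replicate 1 labelled Bmi1 or without ES cell replicate 2 labelled Bmi1, and the calls of Runx1 and Erg were also lost with quantile normalization, with median centring and without any 1 of the 4 ES cell arrays. With no filter the count was 6, Erg being lost (adjusted p = 0.053). With the block it called 6 higher and 2 lower, beside 27.8% and 46.6%.

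Genes that work with these factors were taken from 4 lists. For all list counts below, 36.3% of all genes tested were lower within both replicate numbers. An unadjusted p under 0.05 was given by limma to 7.06% of all genes without the block, and to 19.3% of all probe sets with it. With the block, 0.739% of all genes were called lower, and 1.12% of all probe sets were called in either direction. Of the cofactors of the factors, 14 of 15 were tested and limma called 0 in embryoid bodies, with or without the block; 1 had an unadjusted p under 0.05 without the block and 7 with it. Their median difference was -0.14 and 7 were lower in both replicate numbers. Ldb2, a relative of the LIM-binding protein that holds Lmo2 complexes together, was at -0.90 ± 0.22 (SE, n = 2 and 2 arrays; adjusted p = 0.309, or 0.0606 with the block) and was lower in both numbers, at -1.26 and -0.54. Ssbp2, which stabilises LIM-binding proteins, was at -0.46, and Tcf12, an E protein that pairs with Tal1, at 0.32.

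Of the other blood transcription factors, 17 of 21 were tested, with a median of -0.14, and limma called 1 higher and 0 lower with the block and 0 without it, where 2 had an unadjusted p under 0.05. The 1 was Gata2, the GATA factor of blood stem and progenitor cells. It read 8.64 and 8.79 in embryoid bodies labelled Bmi1 and 7.01 and 7.57 in vector embryoid bodies, higher without overlap, by 1.43 ± 0.22 (SE, n = 2 and 2 arrays; limma adjusted p = 0.0921, or 0.0109 with the block). This was opposite in direction to Tal1, Lyl1 and Lmo2. Gata1 and Klf1, both factors of red cells, were at -0.38 and -0.65.

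Of the upstream genes of mesoderm and its blood-forming precursor, 11 of 12 were tested, with a median of -0.47, and 7 were lower in both numbers. Sox17, a factor of endoderm and arterial endothelium, was at -0.83 ± 0.28 and was the 1 gene called lower with the block (limma adjusted p = 0.0375, or 0.534 without it). Kdr, the VEGF receptor, was at -0.55 and Sox7 at -0.69. Of the progenitor and lineage genes, 14 of 20 were tested, with a median of -0.30 (-0.60 within replicate 1 and 0.07 within replicate 2). Limma called 0 with or without the block, with an unadjusted p under 0.05 for 4 genes without the block and 6 with it. Kit, the stem cell factor receptor, was at -0.73, Epor, the erythropoietin receptor, at -0.63, and Hbb-y, an embryonic globin, at -1.40 ± 0.29 (adjusted p = 0.203, or 0.0511 with the block).

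Endothelial and primitive red cell markers were lower beside Tal1, Lyl1, Lmo2 and Fli1, all of which endothelium or primitive red cells are known to express. Of 16 endothelial markers 15 were tested, with a median of -0.84. All 15 were lower in embryoid bodies labelled Bmi1 and 14 were lower in both numbers, as 36.3% of all genes were. Their mean level was 7.24 and 7.42 in embryoid bodies labelled Bmi1 and 8.14 and 8.02 in vector embryoid bodies, and 13 of the 15 lay above the array's median on all 4 arrays. With the block limma called 4 lower, Pecam1 (-1.47), Tek (-1.09), Emcn (-0.96) and Sox18 (-0.88), where 0.739% of all genes were called lower. Without it limma called 0, with an unadjusted p under 0.05 for 11 and for 7.06% of all genes. Ramp2, a receptor partner in adrenomedullin signalling, was at -0.76. Cdh5, which encodes VE-cadherin, was at -0.21, with -0.55 in replicate 1 and 0.13 in replicate 2. Of 10 primitive red cell markers only 4 were tested, and 3 of these lay above the array's median on all 4 embryoid body arrays. All 4 were lower in both numbers, with a mean level of 6.86 and 7.11 against 7.98 and 8.37. Hba-x (-1.83) and Hbb-bh1 (-1.66), which encode globins of the embryo, were called lower with the block and not without it. All 4 markers had an unadjusted p under 0.05. Without the block, limma called Hba-x and Hbb-bh1 higher in vector embryoid bodies than in control ES cells, but not Epor or Klf1. The part of either cell type in the values of the 4 factors was not tested.

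**Figure D4:**
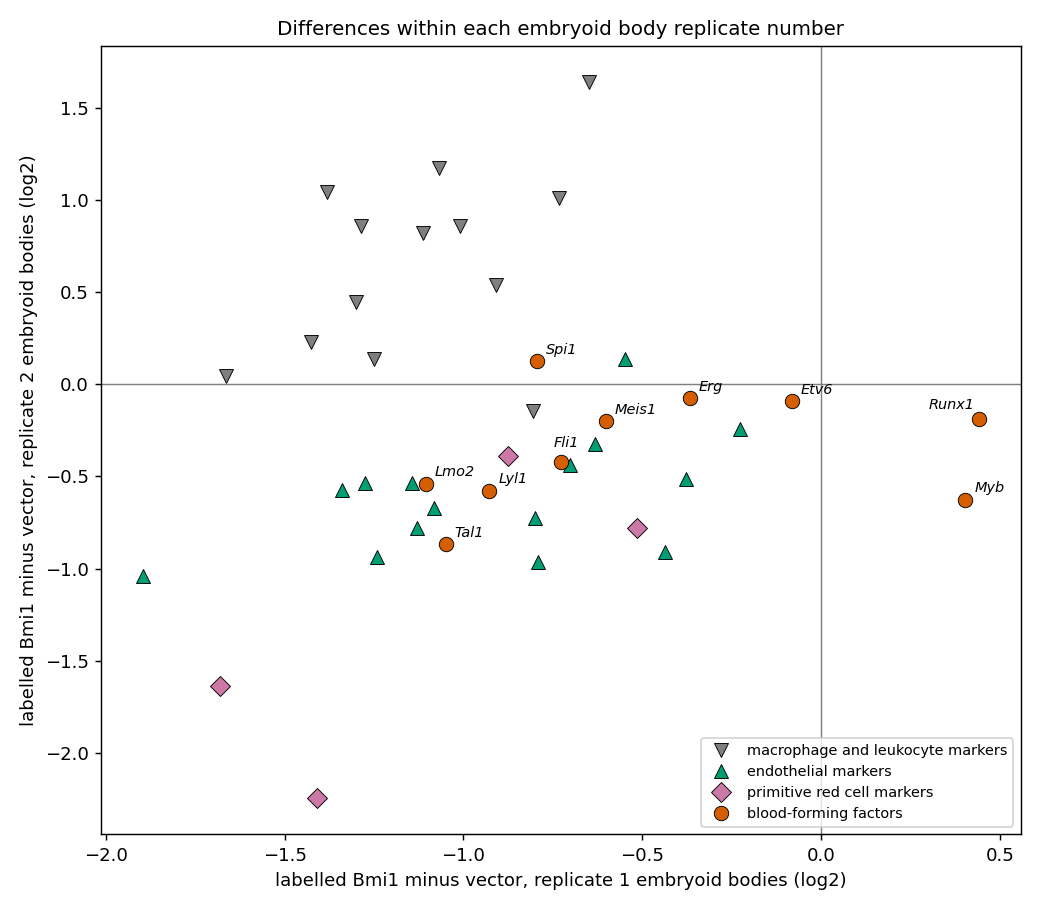
Log2 difference between embryoid bodies labelled Bmi1 and vector embryoid bodies within replicate 1 (x axis) and replicate 2 (y axis), 1 point per tested gene, for the 10 factors (circles), endothelial markers (upward triangles), macrophage and leukocyte markers (downward triangles) and primitive red cell markers (diamonds). Tal1, Lyl1, Lmo2 and Fli1 lie in the lower left among the endothelial markers, Spi1 lies above 0 on the y axis like 12 of the 13 macrophage markers, and Runx1 and Myb alone lie right of 0.

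For each factor the 3 genes with the nearest profile were found by the root mean square distance between centred log2 values over the 8 arrays, which share stage, set and label, so the distance is a description. For Lyl1 these were Maged2 (0.126 log2 units), Icam2 (0.146) and Nbea (0.149), and for Lmo2 they were Pcdhb3 (0.159), Smarca2 (0.190) and Eml1 (0.193). Fli1 was nearest to Emcn (0.241), Unc5c (0.259) and Filip1l (0.259), and Tal1 to Clybl (0.219), H1f10 (0.222) and Cand2 (0.238). Icam2 and Emcn stand in the endothelial list. Runx1 was nearest to Oscar (0.0898), Wbp2nl and Defa39, Erg to Thra (0.0508), Cnnm1 and Fxyd1, and Spi1 to Ptpra (0.0946), Six5 and Ctbs. Myb was nearest to Acvr2b (0.144), Ppp6r3 and Gtf2f2, Etv6 to Cand1 (0.0518), Ppp2r2a and Nelfcd, and Meis1 to Zc3h6 (0.388), Mllt3 and Tmem164. Mllt3 stands in the list of other blood transcription factors. No factor had another of the 10 among its nearest 3.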

How the data were processed

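Gene expression was measured on 8 Affymetrix arrays of CCE mouse ES cells and embryoid bodies, 1 per sample, from 1 microgram of RNA each per the labels' protocols. The authors made the deposited log2 values with RMA, per the submitters' processing notes; its version, and which arrays were processed together, are not given in the sources used here. In general RMA scales arrays that are processed together to 1 distribution, and the 3 sets of distributions seen here bear most on comparisons between stages.

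The 10 members and all lists were chosen with earlier results of these data known. After 64 control probe sets were set aside, 34945 of 45037 had 1 symbol in the platform annotation, 932 had several and 9160 none. The one-symbol probe set that was brightest on average stood for its gene, and probes may read near-identical genes. The contrasts of group means were fitted with lmFit and eBayes of limma 3.58.1, run in R 4.3.3 (all 8 arrays, 4 residual degrees of freedom, or 3 with the embryoid body replicate number as a block). Two-sided p-values were adjusted over 12982 genes by Benjamini-Hochberg and called under 0.05. The spread is shared by all 4 groups. Arrays carry no depth, and 2 arrays a group limit the precision.

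The replicate numbers were checked for pairing. Deviations from group means correlated at r = 0.721 between the replicate 1 embryoid body arrays whereas each of them gave only 0.0273 or 0.0378 with the first ES cell array labelled Bmi1. Since the high value matches the sets of distributions, the number was handled as a batch within embryoid bodies. The sources used here do not say whether processing or culture set them apart.

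The genes named are all 10 members with every probe set, up to 3 genes of each other list with the smallest p in the embryoid body contrast, list genes called there in either fit, and the 3 genes nearest in profile to each member that ranged over more than 1 log2 unit. Ptprc and Cdh5, which define leukocytes and endothelium, were added after their values were seen. Some list entries are not reported here, and Epor, Klf1, Alas2, Rhag and Slc4a1 stand in 2 lists. Alternatives covered the filter on dim genes, the choice of probe set, quantile normalization, median centring, an intensity trend with robust prior, arrays of 1 stage, the block, only the untreated or only the empty vector ES cells as control, and each array left out singly. Combinations of the block with another choice were added after seeing the data.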

Additional observations from a re-analysis of the deposited data

Results flagged for a closer look

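Lmo2 stood out because its arrays labelled Bmi1 lay on opposite sides of their controls at the 2 stages, below both vector arrays in embryoid bodies and above both control arrays in ES cells. The difference between the stages was -1.58 log2 units, and limma's interaction test gave adjusted p = 0.243 without the block and 0.0434 with it. Lyl1 stood out in the same way, with a difference between the stages of -0.88 log2 units and adjusted p = 0.408 and 0.0791, so that it did not pass in either fit. In ES cells Lyl1 was below the array's median on all 4 arrays.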

How the results depend on the processing

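With the embryoid body replicate number as a block (replicate block), 1 factor was called in embryoid bodies in place of 0, and 1 was called for the difference between stages in place of 0. Both counts stayed at 1 with the block and no filter on dim genes. With the block and quantile normalization 3 factors were called in embryoid bodies, and with the block and a trend and robust prior 3 in embryoid bodies and 1 between stages. With the block and every probe set tested on its own both counts were 0, as was the count in embryoid bodies with the block and either the embryoid body arrays or the 6 numbered arrays alone, and the count between stages with the block and quantile normalization. The block changed no call between ES cells labelled Bmi1 and controls. Between vector embryoid bodies and control ES cells, 8 factors were called, and 5 with quantile normalization, 5 with the empty vector array alone and 5 with the untreated array alone. With the filter at the 75th percentile 4 were called, which were all of the factors it left to test (Lmo2, Fli1, Meis1 and Etv6). Between the stages labelled Bmi1 7 were called, and 4 with the 75th percentile filter, again all of those left to test. Without 1 array these counts ran from 5 to 9 and from 4 to 8.

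Signs turned for small differences. Runx1 in embryoid bodies went to -0.0995 with the mean of its probe sets. Against the empty vector ES cells alone, Tal1 was at 0.0591 and Fli1 at 0.0633, and against untreated ES cells alone Runx1 was at -0.016 and Myb at -0.0992. Tal1 between the stages labelled Bmi1 went to -0.237 with quantile normalization and -0.2241 with median centring. The cause was not tested. When 1 array was left out, which for embryoid bodies also brings in how their sets differ, embryoid body differences ran from -0.4504 to 0.6995 for Runx1, from -0.6303 to 0.1884 for Erg, from -0.6767 to 0.008 for Spi1, from -0.9078 to 0.6853 for Myb and from -0.4171 to 0.2451 for Etv6. In ES cells they ran from -0.424 to 0.0591 for Tal1, from -0.016 to 0.0926 for Runx1, from -0.3583 to 0.0633 for Fli1, from -0.0861 to 0.2824 for Spi1 and from -0.0992 to 0.191 for Myb. Tal1 between the stages labelled Bmi1 ran from -0.3594 to 0.6013. Tal1, Lyl1, Lmo2, Fli1 and Meis1 in embryoid bodies stayed below 0 without any 1 array, at -1.44 to -0.48, -0.85 to -0.66, -1.11 to -0.53, -0.76 to -0.39 and -0.80 to -0.01.

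With 2 arrays a group the SE of a difference was 0.16 to 0.48 log2 units, and several factors were dim in ES cells, where small differences could not be measured.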

Other observations

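The control ES cells joined 1 untreated and 1 empty vector array. Between them, empty vector minus untreated, Meis1 was at 0.60, Tal1 at -0.48, Fli1 at -0.42 and Myb at -0.29 log2 units, whereas Lmo2 was at 0.05, Lyl1 at 0.04 and Etv6 at 0.04. These are single arrays, and no test was possible.

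The 2 vector embryoid body arrays also differed from each other. From replicate 1 to replicate 2, Myb differed by 1.59, Tal1 by 0.78, Etv6 by 0.66, Erg by -0.82, Spi1 by -0.68 and Runx1 by -0.52 log2 units, and Lmo2 by 0.01 and Fli1 by 0.06.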
